A study of Mus musculus with 14 samples.

Results

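The comparison described here sets demyelinated lesions of the ventral mouse spinal cord against uninjured cord distal to them, in mice that keep their microglia. It was taken from the sample titles: the 3 lesion pools labelled as not microglia-ablated (pools 2, 4 and 6) were set against the 3 distal pools with the same label (pools 1, 3 and 5), which makes 6 of the 14 samples of the series. The other 8 samples are 4 lesion and 4 distal pools of microglia-ablated mice, which enter the filter on low values and the shared estimate of the spread in every test, and whose own values are given where the responses of both genotypes are set side by side.

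The lesion pools came from Cx3cr1-CreER :Rosa26-iDTR-/- mice at the site where lysophosphatidylcholine (LPC) had been injected. The distal pools were uninjured ventral cord with the same genotype label. Both groups therefore carried the tamoxifen-inducible Cre driven from the Cx3cr1 promoter, active in microglia and in other Cx3cr1-expressing myeloid cells, and both lacked the Cre-dependent diphtheria toxin receptor. Both received tamoxifen for 3 days, then LPC after an interval of 4 to 6 weeks, and diphtheria toxin each day up to collection of the cords at 5 days after LPC, so each difference below was measured in toxin-treated animals. The ablated groups were lesion and distal pools labelled Cx3cr1-CreER :Rosa26-iDTR+/- and were treated in the same way. Each pool held tissue microdissected from 3 to 5 mice of both sexes. The labels do not say how the pools were made up or whether the lesion and distal pieces of one pool came from the same animals, so p-values measure the spread between pools. The age label rises by a month from each pool to the next, 2 to 7 months over pools 1 to 6. It runs on from 8 to 15 months over the ablated pools 7 to 14. Genotype and age label therefore cannot be told apart where the responses of both genotypes are compared.

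LPC is a detergent-like lipid that strips myelin from axons within days of injection and largely spares the axons. Microglia and blood-derived macrophages then clear the myelin debris: they take it up through scavenger and opsonin receptors, break it down in lysosomes, and store or export the cholesterol it contains. In the same period astrocytes react at the lesion, progenitor cells proliferate, and new oligodendrocytes later rebuild the sheaths.

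The values are gene counts that the authors scaled between libraries (normalized counts). The 6 libraries held 23875527 to 30466137 reads assigned to genes, recovered from the steps of the values. Lesion pools were close to each other, with a median within-group standard deviation of 0.24 on the log2 scale, while distal pools were more spread at 0.53. Distal pool 5 lay apart from distal pools 1 and 3 on the second principal component of the 6 libraries (21.4% of the variance), at -117 against 67.6 and 45.0, and results that rest on it are given with and without it. All differences are lesion minus distal on the log2(normalized count + 1) scale with their standard errors, and p-values come from limma with Benjamini-Hochberg adjustment over 15637 tested genes, 3 pools a side. Where values are listed, those of lesion pools 2, 4 and 6 come first, in that order, followed by distal pools 1, 3 and 5.

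The lesion differed from distal cord in a large part of the measured transcriptome, in both directions. Of 15637 genes, 4374 (28.0%) passed an adjusted p of 0.05: 2298 (14.7%) rose and 2076 (13.3%) fell. The median difference over all tested genes was 0.07. All 3 lesion pools lay above all 3 distal pools for 4085 genes (26.1%) and below them for 3607 (23.1%). Of the 4374 genes that passed, 4315 had no overlap between lesion and distal pools, so lack of overlap adds little to a call. Among the genes that passed, 940 differed by at least 3 on the log2 scale. These shares are the background against which the gene groups below are to be read. In bulk tissue, fewer cells of a type and less RNA per cell cannot be told apart.

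**Figure D1:**
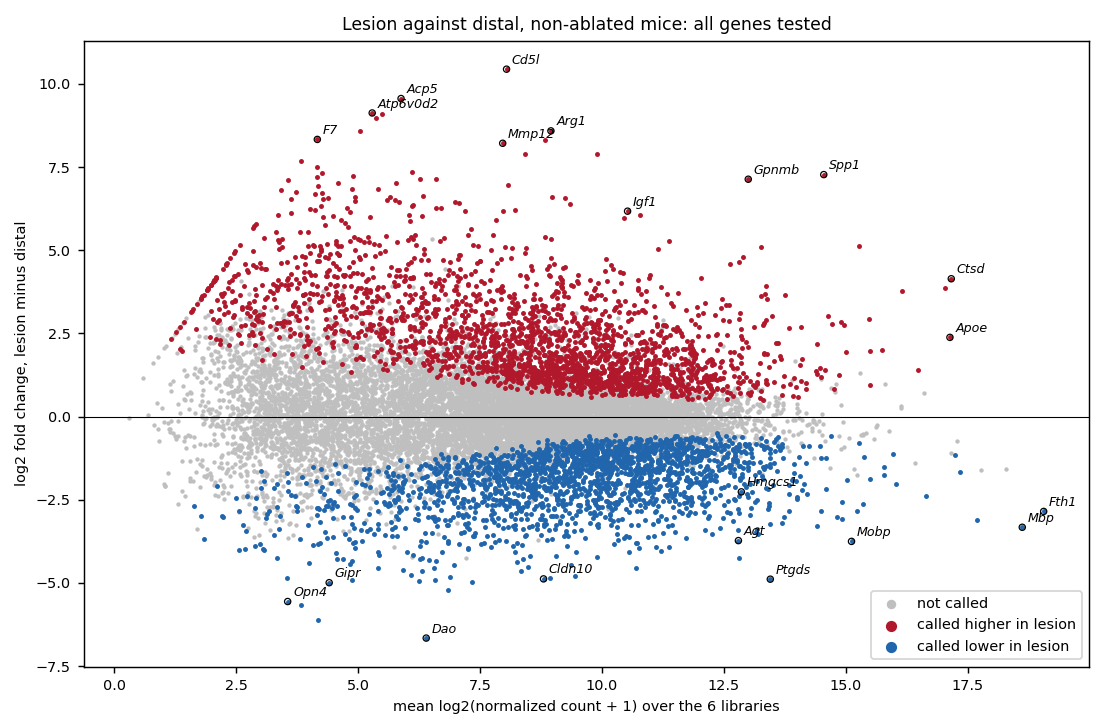
Each point is 1 of the 15637 tested genes, with its mean log2(normalized count + 1) over the 6 libraries on the horizontal axis and the lesion minus distal log2 difference on the vertical axis; coloured points passed an adjusted p of 0.05. Under the naming rule given at the end, the largest rise among the 2298 genes that rose was 10.44 (Cd5l). The largest fall among the 2076 that fell was -6.66 (Dao).

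Among the 12 largest rises under the naming rule given at the end were genes known from macrophages and osteoclasts and genes of secreted proteases. Cd5l, a secreted scavenger-receptor-family protein of macrophages, had 6635, 8603 and 16663 normalized counts in the lesion, against 0, 155 and 1.27 in distal cord (10.44 ± 1.63, adjusted p = 0.000279). Acp5, the tartrate-resistant acid phosphatase of osteoclasts and some macrophages, had 1826, 1667 and 1388 in the lesion, against 0, 0 and 8.91 in distal cord (9.56, adjusted p = 9.02e-06). Atp6v0d2, a subunit of the vacuolar proton pump of osteoclasts and macrophages, had 962, 1081 and 755 in the lesion, against 1.00, 0 and 1.27 in distal cord (9.12 ± 0.63, adjusted p = 1.005e-06). In these 3 genes all lesion pools were high, and the distal pools were at or near 0 except for Cd5l in distal pool 3. Fabp4, a fatty acid carrier of macrophages and adipocytes, rose by 9.09, and Arg1, the arginase of alternatively activated macrophages, rose by 8.59, with 8381, 16500 and 6637 in the lesion, against 3.99, 25.3 and 122 in distal cord. The metalloproteinase genes Mmp10 and Mmp12 rose by 8.58 and 8.21. The coagulation factor gene F7 had 254, 384 and 338 in the lesion and no read in any distal pool. Taking 3 reads as the floor of each distal library, F7 was at least 96.4-fold higher in the lesion. The scavenger receptor gene Msr1 rose by 8.32, the aminopeptidase gene Anpep by 7.90 and the sheddase gene Adam8 by 7.90. The serine protease gene Prss46 rose by 8.96, with 914 to 943 in the lesion, against at most 2.20 in distal cord.

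Among the 12 largest falls under the same naming rule were genes known from astrocytes, meninges and oligodendrocytes. Dao, D-amino-acid oxidase, which in the hindbrain and cord is an enzyme of astrocytes, had 9.70, 6.47 and 6.40 in the lesion, against 943, 1025 and 625 in distal cord (-6.66, adjusted p = 3.02e-06). Ptgds, the prostaglandin D synthase of oligodendrocytes and leptomeninges, had 2730, 1395 and 2296 in the lesion, against 66382, 41195 and 82705 in distal cord (-4.89, adjusted p = 2.68e-06). Cldn10, a claudin of astrocytes and epithelia, had 120, 62.5 and 71.5 in the lesion, against 2824, 2380 and 2105 in distal cord (-4.88). The naming rule required that the ranges of these genes not overlap. Also among the 12 steepest falls were Slc25a29, a mitochondrial carrier of basic amino acids (-4.78), Bbox1, the last enzyme of carnitine synthesis (-4.82), and Fn3k, fructosamine-3-kinase (-4.98). Gipr, the receptor for the gut hormone GIP, fell by 4.99. Ucma, a matrix protein of cartilage, and Il25, an interleukin of epithelia, each fell by 4.91, and the uncharacterized gene BC048546 fell by 5.65. Opn4, the melanopsin gene, differed by -5.56 (adjusted p = 0.0160), a call that was lost when lesion pool 4, lesion pool 6 or distal pool 5 was left out. Art3, an ADP-ribosyltransferase-family gene, fell by 4.86; its annotated span holds the chemokine genes Cxcl10 and Cxcl11.

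The genes with the smallest p-values under the naming rule included leukocyte surface genes and a myelin gene. Cd84, a SLAM-family receptor of leukocytes, had 9083, 9264 and 8205 in the lesion, against 528, 388 and 490 in distal cord (4.25 ± 0.25, adjusted p = 7.29e-07). Itgb2, the shared beta chain of leukocyte integrins, had 7315, 6968 and 7135 in the lesion, against 468, 581 and 258 in distal cord (4.11). On the falling side, Mobp, a structural protein of central myelin, had 13063, 8897 and 7825 in the lesion, against 129349, 144987 and 118043 in distal cord (-3.75 ± 0.22, adjusted p = 7.29e-07). S100b, a calcium-binding protein of glia, fell by 3.07, Plekhb1, a membrane-trafficking protein, by 2.86, Gnai1, an inhibitory G-protein subunit, by 3.52, and Rab37, a vesicle GTPase, by 2.83. Tprkb fell by 2.88, but its annotated span overlaps Nat8f1. Sez6l2, a neuronal surface protein, fell by 3.91.

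**Figure D2:**
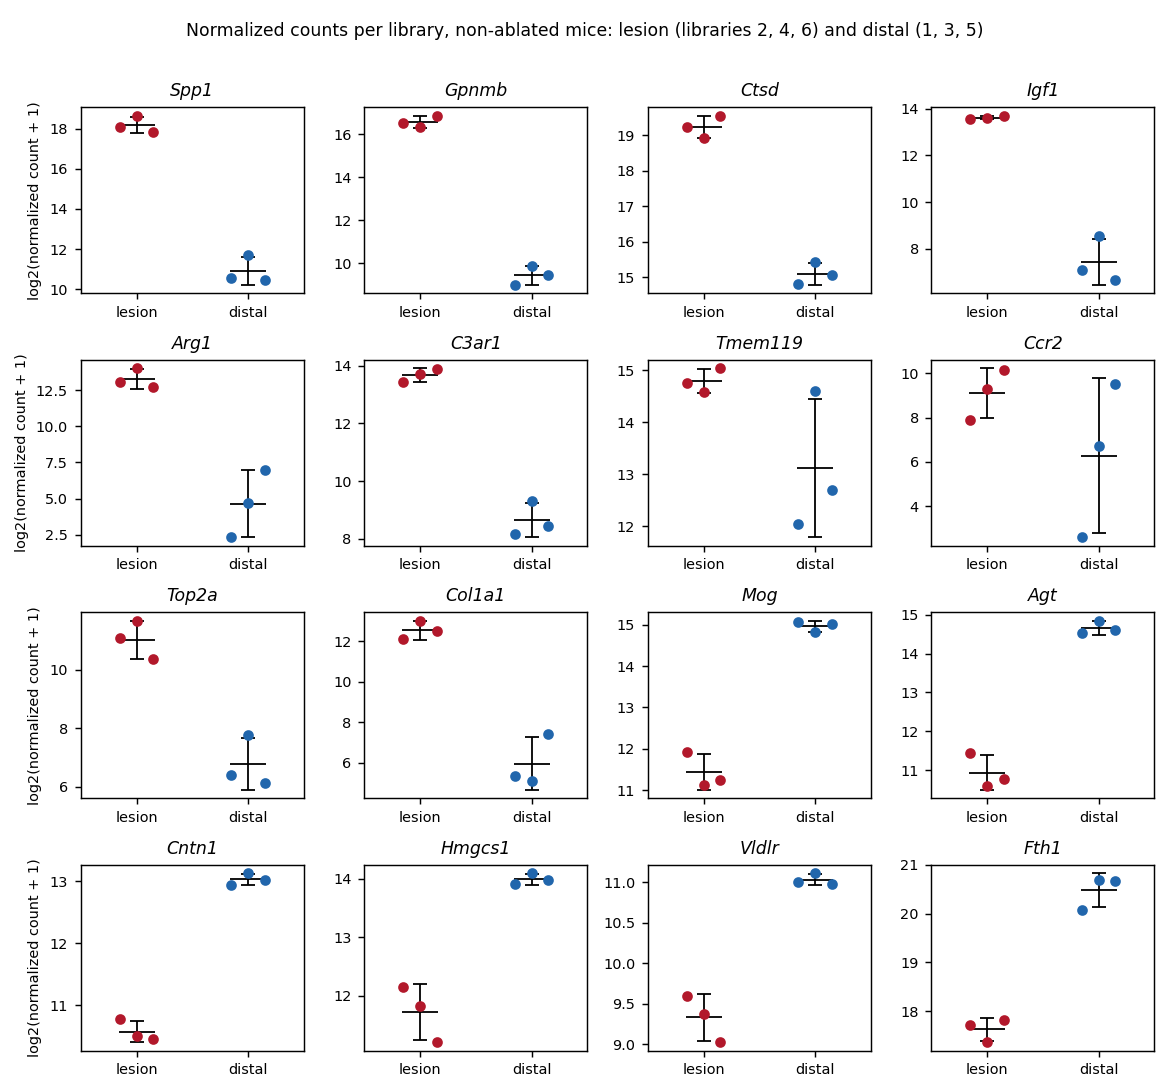
Each panel shows 1 gene, with log2(normalized count + 1) on the vertical axis, the 3 lesion pools on the left and the 3 distal pools on the right; points are libraries and the bar is the mean ± SD. The lesion and distal points are apart for Spp1, Gpnmb, Ctsd, Igf1, Arg1, C3ar1, Top2a, Col1a1, Mog, Agt, Cntn1, Hmgcs1, Vldlr and Fth1, while for Tmem119 (24622 to 33572 in the lesion, against 4215 to 24793 in distal cord) and Ccr2 (240 to 1129 against 4.99 to 743) the distal pools are widely spread.

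Genes of the phagocyte state that microglia and macrophages adopt around myelin debris rose nearly throughout. Of 18 tested genes of the disease-associated phagocyte list, 16 rose and none fell, with a median difference of 3.60, and all 18 had the 3 lesion pools above the 3 distal pools. Spp1, osteopontin, an adhesive secreted glycoprotein, had 279799, 407948 and 231414 in the lesion, against 1491, 3367 and 1425 in distal cord (7.27 ± 0.73, adjusted p = 8.05e-06). Gpnmb, a glycoprotein of lysosome-loaded macrophages, had 94698, 81299 and 118707 in the lesion, against 507, 937 and 693 in distal cord (7.13 ± 0.46, adjusted p = 8.35e-07). Igf1, a growth factor for the oligodendrocyte lineage, had 12036, 12312 and 13241 in the lesion, against 135, 374 and 102 in distal cord (6.17 ± 0.41). In each of these 3 genes the lowest lesion pool lay far above the highest distal pool. Trem2, the lipid-sensing receptor of microglia, had 9933, 9338 and 13835 in the lesion, against 1283, 1173 and 375 in distal cord (3.71). Apoe, the main lipid carrier of the central nervous system, rose by 2.38, Lpl, lipoprotein lipase, by 3.53, and Lgals3, a galectin that binds damaged membranes, by 4.81. The 2 members that did not pass were Csf1, with 2844 to 3271 in the lesion and 1896 to 2622 in distal cord, and Fabp5, with 66002 to 93596 in the lesion and 27641 to 63773 in distal cord.

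Lysosomal genes rose as a group of unequal members. Of 23 tested, 18 rose and none fell (median 2.66), and together the listed genes took 6.42%, 5.89% and 6.92% of the reads in the lesion, against 0.929%, 1.11% and 1.03% in distal cord. Ctsd, an aspartic protease, had 621398, 493207 and 763866 in the lesion, against 28432, 43754 and 34204 in distal cord (4.14 ± 0.42, adjusted p = 8.95e-06). Hexa, the alpha chain of the hexosaminidase that degrades gangliosides, had 18479, 17085 and 24534 in the lesion, against 1764, 2175 and 1892 in distal cord (3.35 ± 0.25). Gla, alpha-galactosidase, rose by 4.03, and Lipa, the acid lipase that frees cholesterol from its esters, rose by 2.90. Psap, the precursor of the saposins that present sphingolipids to their hydrolases, rose by 1.99. Among structural and transport proteins of the lysosome, Lamp2 rose by 1.00, and Lamp1 had 70391 to 96583 in the lesion and 56290 to 71123 in distal cord (0.26, adjusted p = 0.458). Npc2, which lifts cholesterol out of the lysosomal lumen, rose by 1.36, whereas its membrane partner Npc1 had 7448 to 7694 in the lesion and 6495 to 6975 in distal cord (0.18, adjusted p = 0.676). The exons of Ctsb (3.76 ± 0.25) share 774 bases, 12.8% of their length, with Fdft1 on the opposite strand; whether counting used strand is not stated.

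The E-box CACGTG is the core of the element that TFEB-family factors read at lysosomal promoters. On both strands, within 250 bases before to 50 bases after the annotated start, 7 of the 16 lysosomal genes with a RefSeq promoter held this motif, against 7.2% of all 32851 promoters of that length and 8.1% of 27025 genes. The promoter of Ctsd is shown because it belongs to the called lysosomal gene with the smallest p that held the motif; it lies on the minus strand at chr7:142387778-142388077 (GRCm38.p6, RefSeq), and capitals mark the matches to CACGTG.
Ctsd: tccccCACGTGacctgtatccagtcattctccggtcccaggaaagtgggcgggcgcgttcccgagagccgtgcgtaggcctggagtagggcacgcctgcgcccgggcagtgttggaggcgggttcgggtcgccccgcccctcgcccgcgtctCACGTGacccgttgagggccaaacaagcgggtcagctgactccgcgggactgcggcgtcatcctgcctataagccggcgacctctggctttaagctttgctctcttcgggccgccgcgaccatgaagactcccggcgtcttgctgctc
The gene of the factor itself, Tfeb, had 782 to 1158 in the lesion and 916 to 1707 in distal cord (-0.38, adjusted p = 0.491). A match is a description of the sequence, not a measured binding site.

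Receptors for lipid uptake moved in both directions. Of 12 tested genes of the scavenger and lipid uptake list, 8 rose and 2 fell. Cd36, a receptor for oxidized lipids and fatty acids, had 3306, 3841 and 2179 in the lesion, against 22.0, 29.7 and 19.1 in distal cord (6.97 ± 0.73, adjusted p = 1.03e-05). Vldlr, a lipoprotein receptor and 1 of the genes that fell, had 775, 660 and 520 in the lesion, against 2052, 2215 and 2020 in distal cord (-1.70 ± 0.22, adjusted p = 5.74e-05). The related receptor Lrp1, which also takes up myelin, rose by 1.16. Mertk, a receptor for apoptotic cells, had 1854 to 2120 in the lesion and 267 to 602 in distal cord without overlap, yet did not pass (2.18 ± 0.85, adjusted p = 0.0702).

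Sterol export and storage rose while sterol synthesis fell. Of 15 tested genes of lipid efflux and storage, 7 rose and none fell (median 1.62). Abca1, the pump that loads cholesterol onto apolipoproteins, had 17046, 17536 and 16848 in the lesion, against 1647, 2571 and 1360 in distal cord (3.26 ± 0.25, adjusted p = 1.27e-06). Plin2, which coats lipid droplets, rose by 4.15 (15512 to 21049 in the lesion, against 544 to 1542 in distal cord). Soat1, which esterifies cholesterol for storage, rose by 2.73. Nr1h3 and Nr1h2, the genes of the LXR receptors that drive this programme, did not pass, with 152 to 211 in the lesion and 80.9 to 237 in distal cord for Nr1h3, and 245 to 413 against 163 to 228 for Nr1h2.

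Of 19 tested genes of cholesterol biosynthesis, 16 fell and none rose (median -2.05), and 18 of them had all 3 lesion pools below all 3 distal pools. Their summed share of reads was 0.0991%, 0.0813% and 0.0585% in the lesion, against 0.303%, 0.262% and 0.266% in distal cord. Hmgcs1, the synthase at the entry of the pathway, had 4529, 3628 and 2367 in the lesion, against 15322, 17480 and 16055 in distal cord (-2.26 ± 0.22, adjusted p = 6.67e-06). Sqle, the squalene epoxidase, had 2114, 1710 and 1251 in the lesion, against 7052, 7000 and 7679 in distal cord (-2.13 ± 0.25, adjusted p = 3.09e-05). In both genes every lesion pool lay below every distal pool. Srebf2, the gene of the factor that drives the pathway, fell by 2.05, and Insig1, its sterol-sensitive retention partner, by 2.28. The 3 that did not pass were Mvk (adjusted p = 0.0713), Hsd17b7 (adjusted p = 0.0712) and Lss, which had 5.75 to 10.5 in the lesion and 6.36 to 19.0 in distal cord. Oligodendrocyte and astrocyte genes, described below, fell in the same pools; how much of the sterol change goes with those cells was not tested.

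Sterol promoters are known for CCAAT boxes beside sterol-response elements. All 14 cholesterol genes with a RefSeq promoter held CCAAT on 1 of the strands, against 37.4% of all promoters and 41.1% of genes, whereas the sterol-element core CACNCCAC was found in 2 of 14, against 6.2% of promoters. The Hmgcs1 promoter, plus strand at chr13:119690101-119690400 (GRCm38.p6, RefSeq), is shown as the example that held both; capitals mark CCAAT or its complement ATTGG, and CACCCCAC.
Hmgcs1: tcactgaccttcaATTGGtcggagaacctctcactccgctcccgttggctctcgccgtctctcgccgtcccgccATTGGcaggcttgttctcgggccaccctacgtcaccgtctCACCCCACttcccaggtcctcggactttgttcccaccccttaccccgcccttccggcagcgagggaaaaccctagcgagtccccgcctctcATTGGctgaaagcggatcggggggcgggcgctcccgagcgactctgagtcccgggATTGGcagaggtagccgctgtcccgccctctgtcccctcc
A window of 300 bases without a motif says nothing of elements outside it.

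Markers shared by all macrophages rose, and those of resting microglia moved in both directions. Of 16 tested pan-macrophage genes, 13 rose and none fell (median 2.86), and their share of reads was 2.27%, 2.32% and 2.86% in the lesion, against 0.135%, 0.207% and 0.192% in distal cord. Cd68, a lysosomal glycoprotein of phagocytes, had 50544, 55439 and 69033 in the lesion, against 1078, 2298 and 1916 in distal cord (5.10 ± 0.55). Mpeg1, a pore-forming protein of macrophages, rose by 4.64, and Lyz2, lysozyme, by 5.13. Aif1, which encodes the microglial stain IBA1, had 1869 to 3234 in the lesion and 393 to 1535 in distal cord (1.95 ± 0.77, adjusted p = 0.0728).

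Of 15 homeostatic microglia genes, 12 were tested, and each had at least 59.8 normalized counts in all 6 pools. These levels do not check the label of the pools as microglia-containing. Ablated pools are not set beside them, and other cells express some of these genes. P2ry12, P2ry13 and Gpr34, which are among the defining markers, were listed at 0 in all 14 libraries and could not be used. Of the 12 tested, 5 rose and 1 fell (median 1.27). Fcrls, an Fc receptor-like gene of resident microglia, had 34985, 32779 and 36595 in the lesion, against 2670, 4354 and 1894 in distal cord (3.63 ± 0.41, adjusted p = 1.94e-05). Cx3cr1, the fractalkine receptor gene whose promoter drives the Cre, had 3892, 3657 and 4717 in the lesion, against 864, 1361 and 510 in distal cord (2.27 ± 0.54, adjusted p = 0.00628). Csf1r, the survival receptor of microglia and macrophages, rose by 1.56 (adjusted p = 0.00992); without distal pool 5 and lesion pool 6, Cx3cr1 and Csf1r no longer passed (adjusted p = 0.0858 and 0.101). Tmem119 had 27462, 24622 and 33572 in the lesion, against 4215, 24793 and 6665 in distal cord, where pool 3 reached the level of the lesion (1.68 ± 0.89, adjusted p = 0.187). Siglech had 475 to 805 in the lesion, against 813 to 1109 in distal cord, and Sall1, a transcription factor of microglial identity, 531 to 690 against 440 to 1242; neither passed. The 1 that fell was Sparc (-0.79), a matrix protein that astrocytes and vessels also make, and its call was lost without lesion pool 2 or distal pool 3.

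Genes of infiltrating blood cells were uneven between pools. Of 12 tested genes of the recruited monocyte list, 4 rose and none fell. Ccr2, the chemokine receptor of inflammatory monocytes, had 240, 622 and 1129 in the lesion, against 4.99, 106 and 743 in distal cord (2.83 ± 1.23, adjusted p = 0.106). Ly6c2, another marker of these monocytes, had 205 to 770 in the lesion and 641 to 3174 in distal cord (adjusted p = 0.0630). In both genes the highest values of each tissue were in lesion pool 6 and distal pool 5. Without distal pool 5 the Ccr2 difference was 4.45 and passed, as did 8 of the 12 genes. Without distal pool 1, 3 of the 12 rose and 1 fell, and the list median was 1.04, against 2.62 with all pools. Thbs1, thrombospondin 1, had 1310, 1840 and 1893 in the lesion, against 7.99, 112 and 117 in distal cord (5.07), and Itga4, an integrin chain used to leave the blood, rose by 3.24. Among 6 tested neutrophil genes 3 rose, Mmp8, Cxcr2 and Csf3r, while the granule genes Elane, Ngp, Camp and Mpo and the surface marker Ly6g had at most 6.61 normalized counts in any of the 6 pools. S100a8 had 44.5, 92.7 and 181 in the lesion, against 0, 7.71 and 125 in distal cord, and did not pass. None of 11 tested T and NK cell genes passed. The 14 listed T and NK cell genes with a count, tested or not, summed to 1327 to 2096 in the lesion and 2362 to 4898 in distal cord. Of these sums Thy1, which neurons also express, gave 1006 to 1387 in the lesion and 1888 to 4874 in distal cord. Border macrophage genes, which mark cells around vessels and in the meninges, rose in 5 of 10 tested: Stab1 (4.34), Folr2 (3.93), Siglec1 (6.17), Pf4 (6.03) and F13a1 (3.56), while Mrc1 and Cd163 overlapped between tissues. Of the B-cell markers, Ms4a1 was listed at 0 and Cd79a had at most 4.27 in these pools; Cd22, which microglia also express, had 1089, 985 and 1814 in the lesion, against 62.9, 80.4 and 0 in distal cord (6.17, adjusted p = 0.00394, and 4.11 without distal pool 5).

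**Figure D3:**
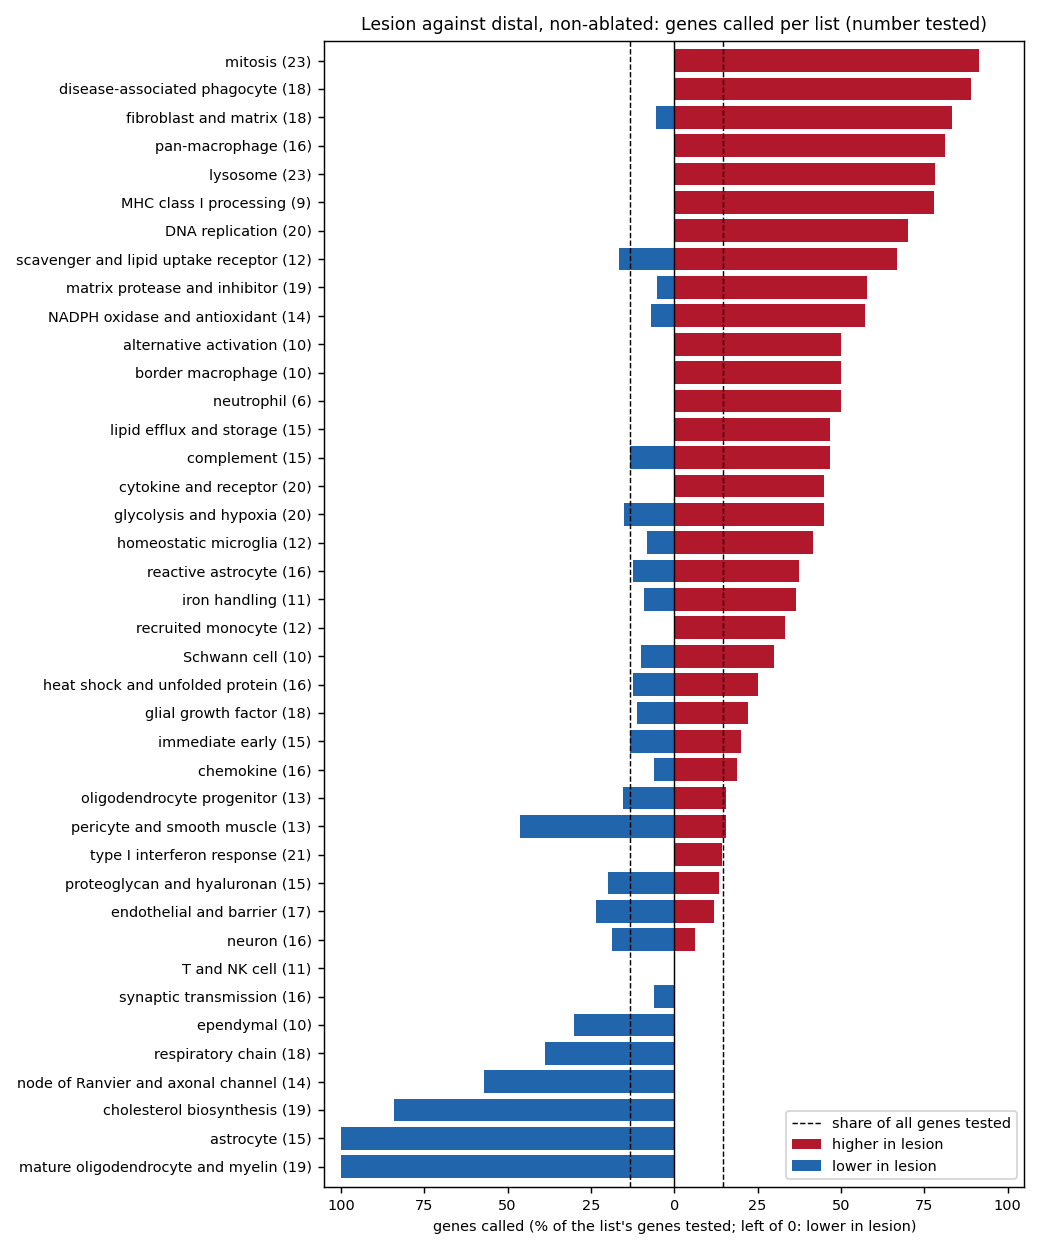
Horizontal bars give, for each gene list with at least 5 tested members, the share of tested members that rose and the share that fell in the lesion, in percent; dashed lines give the same shares over all 15637 genes (14.7% and 13.3%). The mitosis list (21 of 23 rose) and the disease-associated phagocyte list (16 of 18 rose) lie at one end, and the myelin and astrocyte lists (19 of 19 and 15 of 15 fell) at the other.

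Chemokines and cytokines were less uniform than phagocyte genes. Of 16 tested chemokine genes, 3 rose (14.7% of all genes did) and 1 fell. The count that rose was 7 without distal pool 5, and 2 to 7 over the alternative fits. Ccl3, which attracts monocytes, had 882, 628 and 398 in the lesion, against 46.9, 85.9 and 12.7 in distal cord (3.97 ± 0.75). Ccl8 had 59.0, 109 and 285 in the lesion, against 0, 1.10 and 17.8 in distal cord (5.18). Ccl4 passed (2.88, adjusted p = 0.0253), but the call was lost in 5 of the 6 fits that left out 1 pool. The 1 that fell was Cx3cl1, the neuronal fractalkine that binds CX3CR1, with 502, 536 and 612 in the lesion, against 1186, 1191 and 1203 in distal cord (-1.12 ± 0.24). Ligand and receptor of this pair thus moved in opposite directions. Ccl2, the ligand of CCR2, had 1672, 3319 and 1492 in the lesion, against 41.9, 558 and 1427 in distal cord, and did not pass (adjusted p = 0.116).

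Of 20 tested cytokine and receptor genes, 9 rose and none fell, and 5 rose without distal pool 1, lesion pool 4 or lesion pool 6. The classical inflammatory cytokine genes had few reads: Tnf had 43.6, 27.3 and 18.1 in the lesion, against 1.00, 59.5 and 0 in distal cord, and Il6 had 4.27 to 24.4 in the lesion and 2.20 to 17.8 in distal cord, and neither passed. Il1b had 37.2, 42.4 and 184 in the lesion, against 9.98, 63.9 and 35.6 in distal cord, and did not pass. Il1a, by contrast, rose and passed (limma, 2.93, adjusted p = 0.00572), a call that was lost with quantile normalization. Tnfrsf1b, the TNF receptor 2 gene, had 2209, 2574 and 3349 in the lesion, against 87.9, 248 and 240 in distal cord (3.93 ± 0.58, adjusted p = 0.000171), and Csf2rb, the shared chain of the GM-CSF, IL-3 and IL-5 receptors, rose by 2.92. Tgfb1, transforming growth factor beta 1, rose by 2.69.

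Most interferon-response genes overlapped between the tissues, with high levels in distal pools 3 and 5 as well. In 7 of the 21 tested, all 3 lesion pools lay above all 3 distal pools, against 26.1% of all genes. Of 21 tested genes 3 rose and none fell, near the background of 14.7%, and 11 rose when distal pool 5 was left out. The count that rose was 2 to 11 over the alternative fits. Isg15, a ubiquitin-like modifier, had 3524, 5007 and 5728 in the lesion, against 143, 2491 and 12483 in distal cord (adjusted p = 0.366). Mx1 had 3861, 4129 and 4008 in the lesion, against 93.8, 2380 and 4642 in distal cord (adjusted p = 0.382). The list's mean log2 level was 11.15, 11.59 and 11.73 in the lesion, against 7.55, 10.45 and 11.51 in distal cord, so distal pool 1 alone lay well below the rest. The genes that passed were Oas3, with 244, 507 and 671 in the lesion, against 3.99, 9.92 and 31.8 in distal cord (5.17 ± 0.91, adjusted p = 0.000679), Trim30a (1.89) and Rtp4 (1.82, lost in 4 of the 6 fits that left out 1 pool). The core of the interferon-stimulated response element, searched as GAAA, any 2 bases and GAAA again on both strands, was found in 9 of 15 listed genes with a RefSeq promoter, against 3.4% of all promoters and 4.0% of genes. The Oas3 promoter, minus strand at chr5:120777610-120777909 (GRCm38.p6, RefSeq), is shown because Oas3 was the interferon gene with the smallest p; capitals mark the match.
Oas3: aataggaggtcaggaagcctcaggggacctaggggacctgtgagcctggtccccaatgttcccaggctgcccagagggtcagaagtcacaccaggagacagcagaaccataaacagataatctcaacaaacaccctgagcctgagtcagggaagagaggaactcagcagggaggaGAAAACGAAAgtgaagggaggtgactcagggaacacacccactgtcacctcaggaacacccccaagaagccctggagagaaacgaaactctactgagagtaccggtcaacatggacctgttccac

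Genes of antigen presentation followed the same order of pools. Of 9 tested MHC class I processing genes, 7 rose and none fell (median 2.08). H2-K1, a classical class I heavy chain, had 17779, 27974 and 39444 in the lesion, against 2330, 5130 and 16308 in distal cord (2.22 ± 0.53, adjusted p = 0.00616). The list's mean log2 level was 11.23, 11.52 and 11.81 in the lesion, against 8.25, 9.81 and 10.80 in distal cord. In both tissues it was highest in the pools with the highest monocyte and T-cell marker levels, lesion pool 6 and distal pool 5; the part of those cells in the rise was not tested. The count of 7 was 3 without distal pool 1, lesion pool 4 or lesion pool 6. Cd74, the class II chaperone, had 1136, 1228 and 1935 in the lesion, against 23.0, 314 and 831 in distal cord; it passed (2.92, adjusted p = 0.0318) but lost the call in 4 of the 6 fits that left out 1 pool. B2m, H2-D1 and the class II genes H2-Aa, H2-Ab1 and H2-Eb1 were listed at 0 in every library.

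Within complement, the C1q genes and the receptors rose and C3 fell. C1qa, C1qb and C1qc, the chains of the recognition molecule, rose by 2.68, 2.81 and 2.94. C3ar1, the receptor for C3a, had 10940, 13330 and 15160 in the lesion, against 286, 629 and 351 in distal cord (5.03 ± 0.33, adjusted p = 8.35e-07). C5ar1, the receptor for C5a, rose by 3.48. C3, the central component, had 2964, 2389 and 3137 in the lesion, against 11260, 19888 and 17611 in distal cord (-2.49 ± 0.34, adjusted p = 9.66e-05). Cd59a, an inhibitor of the membrane attack complex, fell by 2.60. In all, 7 of 15 tested complement genes rose and 2 fell.

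Of 14 tested NADPH oxidase and antioxidant genes, 8 rose and 1 fell, and of 11 tested iron handling genes, 4 rose, 1 fell and 6 did not pass (median 0.96). Cybb, the catalytic subunit of the phagocyte oxidase, had 6038, 7984 and 12568 in the lesion, against 144, 626 and 1162 in distal cord (4.16 ± 0.71), and its partner Cyba rose by 3.15. The 1 that fell was Sod2, the mitochondrial superoxide dismutase (-1.08). Hmox1, heme oxygenase, had 2929, 1517 and 739 in the lesion, against 41.9, 72.7 and 181 in distal cord (4.16 ± 0.60). The ferritin chains moved in opposite directions: Ftl1, the light chain, had 73574, 66143 and 78092 in the lesion, against 8094, 9467 and 9320 in distal cord (3.02 ± 0.28, adjusted p = 4.58e-06), while Fth1, the heavy chain, had 214775, 168610 and 231474 in the lesion, against 1108170, 1696480 and 1670540 in distal cord (-2.85 ± 0.36, adjusted p = 5.60e-05). With quantile normalization the Fth1 difference was -1.89. Both chains have many processed pseudogenes, so reads of either may be split among copies. Slc11a1, a metal pump of the phagosome, rose by 2.54.

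**Figure D4:**
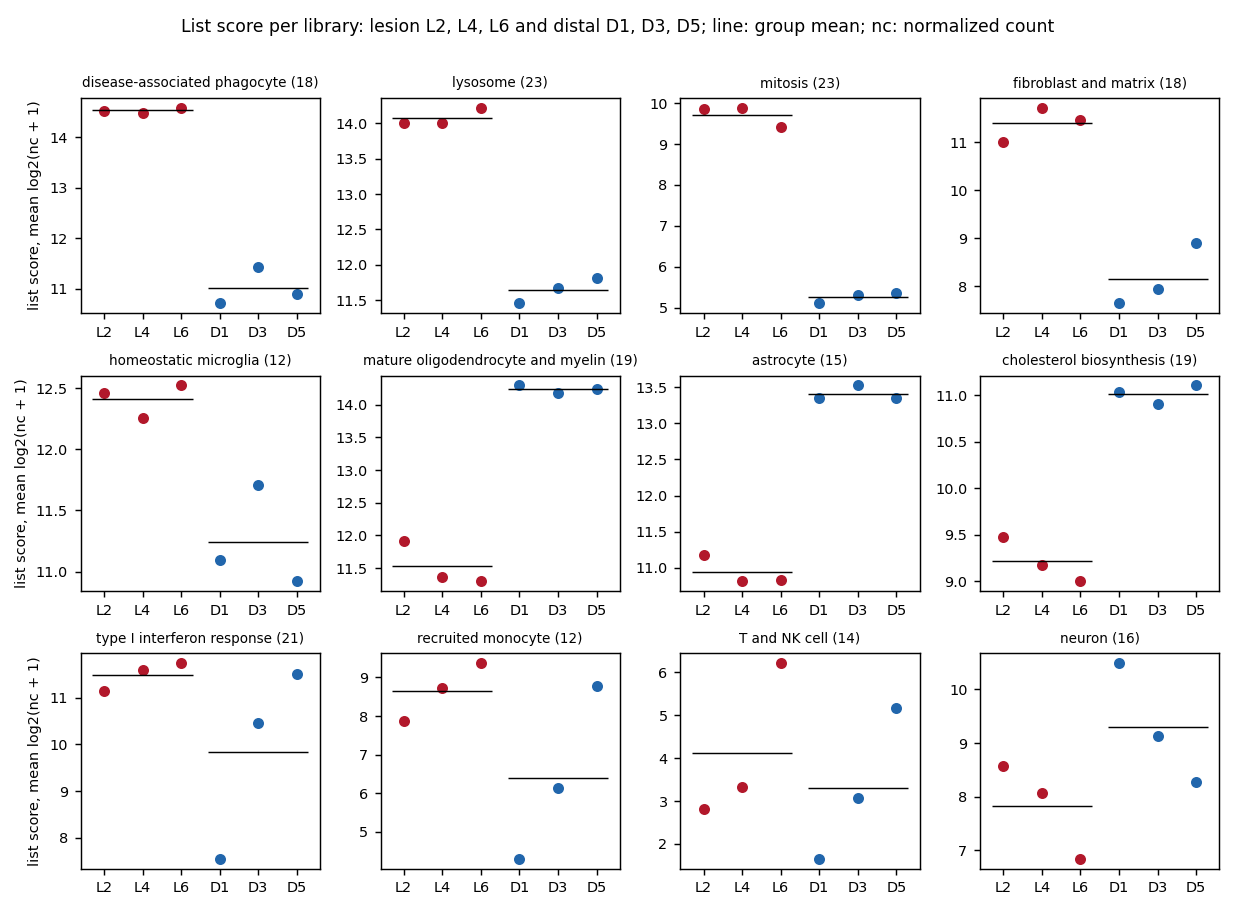
Each panel gives 1 gene list, with 1 point per library, lesion pools 2, 4 and 6 on the left and distal pools 1, 3 and 5 on the right. The vertical axis is the mean log2(normalized count + 1) of all members with a count in any of the 14 libraries, tested or not. The phagocyte, lysosome, myelin, astrocyte and cholesterol lists keep the tissues apart, whereas the interferon list (11.15 to 11.73 in the lesion, against 7.55 to 11.51 in distal cord) and the T and NK cell list (2.81 to 6.21 against 1.65 to 5.16) overlap.

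Cell division genes rose in nearly every member. Of 23 tested mitosis genes, 21 rose and none fell, with a median difference of 4.43, and 14 of 20 DNA replication genes rose (median 2.58). Top2a, which untangles DNA in dividing cells, had 2173, 3221 and 1313 in the lesion, against 83.9, 220 and 70.0 in distal cord (4.25 ± 0.52, adjusted p = 3.57e-05). Aurkb, a kinase of the chromosomal passenger complex, had 873, 650 and 424 in the lesion, against 14.0, 1.10 and 2.54 in distal cord (7.01 ± 0.76, adjusted p = 1.42e-05). Kif22, a kinesin that pushes chromosome arms to the spindle equator, had 1752, 2009 and 1664 in the lesion, against 85.9, 47.4 and 112 in distal cord (4.53 ± 0.37, adjusted p = 1.95e-06). In these 3 genes the lowest lesion pool lay above the highest distal pool. Mki67, the usual proliferation marker, had 1186, 1139 and 692 in the lesion, against 11.0, 71.6 and 22.9 in distal cord (5.15 ± 1.15). Bub1b, a spindle checkpoint kinase, rose by 5.92, and Rrm2, a subunit of ribonucleotide reductase, by 6.25. The 2 mitosis genes that did not pass were Aurka and Kif11, whose ranges overlapped, with 488 to 716 in the lesion and 151 to 852 in distal cord for Aurka, and 4508 to 5340 against 3839 to 7594 for Kif11. Of the replicative helicase genes, Mcm2, Mcm3, Mcm5 and Mcm6 rose by 2.59 to 3.83. The count of 14 replication genes was 9 without lesion pool 2 and 8 without lesion pool 4. Which cells divided cannot be read from bulk tissue.

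Cell-cycle promoters often carry a CHR element (TTTGAA) with CCAAT boxes. TTTGAA was found in 14 of the 19 mitosis genes with a RefSeq promoter, against 17.9% of all promoters and 20.2% of genes, and CCAAT in 17 of the 19, against 37.4% of promoters. CACGTG was found in none of the 19. The promoters of Kif22 (minus strand, chr7:127042371-127042670) and Bub1b (plus strand, chr2:118597961-118598260; both GRCm38.p6, RefSeq) are shown because they belong to the called mitosis genes with the smallest p that held both motifs; capitals mark TTTGAA or its complement TTCAAA, and CCAAT or ATTGG.
Kif22: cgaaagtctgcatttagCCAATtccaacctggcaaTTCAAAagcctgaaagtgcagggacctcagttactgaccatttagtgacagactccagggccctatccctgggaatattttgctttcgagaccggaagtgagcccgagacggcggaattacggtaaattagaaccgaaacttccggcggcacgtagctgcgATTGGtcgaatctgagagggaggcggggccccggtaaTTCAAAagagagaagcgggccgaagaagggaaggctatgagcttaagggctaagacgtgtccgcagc
Bub1b: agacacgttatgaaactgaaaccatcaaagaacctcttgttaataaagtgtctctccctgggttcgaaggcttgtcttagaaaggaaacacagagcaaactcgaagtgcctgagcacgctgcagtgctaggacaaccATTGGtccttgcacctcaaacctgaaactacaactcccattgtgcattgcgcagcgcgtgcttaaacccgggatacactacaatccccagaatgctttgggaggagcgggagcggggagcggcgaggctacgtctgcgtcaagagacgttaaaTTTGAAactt
Kif22 has a match to each motif on both sides of the middle of the window, and Bub1b has its TTTGAA match after the start. In all, 12 motifs were searched across the lists.

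Mature oligodendrocyte and myelin genes fell without exception among the 19 tested. The median difference was -2.86, all 19 had the lesion pools below the distal pools, and their share of reads was 1.58%, 1.06% and 0.961% in the lesion, against 9.53%, 9.47% and 6.73% in distal cord. Mog, a surface glycoprotein of the outer myelin layer, had 3892, 2245 and 2452 in the lesion, against 34077, 28747 and 33186 in distal cord (-3.52 ± 0.27, adjusted p = 1.27e-06). Mbp, myelin basic protein, had 162076, 102461 and 123563 in the lesion, against 1233870, 1476410 and 1134710 in distal cord (-3.33 ± 0.26), and Aspa, aspartoacylase, fell by 3.70. The smallest falls were those of Bcas1, a gene of early myelinating cells (-1.08), and Cldn11, the tight-junction claudin of myelin (-1.23). Myrf, the factor that drives myelin gene transcription, fell by 1.97. Enpp6, which marks newly formed oligodendrocytes, fell by 1.81.

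Progenitor genes did not share that fall. Of 13 tested genes of the oligodendrocyte progenitor list, 2 rose and 2 fell, with a median of 0.22. These counts lie near the shares over all genes (14.7% and 13.3%). Pdgfra, the growth factor receptor of progenitors, had 2716, 2941 and 3043 in the lesion, against 2173, 2989 and 2362 in distal cord (0.22 ± 0.25, adjusted p = 0.558). Cspg4, the NG2 proteoglycan of progenitors and pericytes, had 2660, 2598 and 2229 in the lesion, against 550, 356 and 299 in distal cord (2.68 ± 0.38, adjusted p = 0.000135). Olig1 fell by 1.44, with 9319 to 9588 in the lesion, against 22363 to 30894 in distal cord, while its neighbour Olig2 had 2548 to 2990 in the lesion and 3326 to 4144 in distal cord (-0.37, adjusted p = 0.214). Sox10 differed by -1.27, a call that was lost without distal pool 5 or without lesion pool 6. Vcan, which fibroblasts and monocytes also express, rose by 1.33. Pdgfra is likewise a fibroblast gene, and fibroblast genes rose in the same pools.

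Astrocyte genes fell in all 15 tested (median -2.34). Agt, angiotensinogen, had 2765, 1540 and 1757 in the lesion, against 23599, 29522 and 24964 in distal cord (-3.73 ± 0.28, adjusted p = 1.17e-06). Aldoc, an aldolase of astrocytes, had 3216, 2129 and 3029 in the lesion, against 31109, 29025 and 31467 in distal cord (-3.47 ± 0.31). Gja1, the connexin 43 gene, fell by 3.00, and Slc1a2, the main glutamate transporter, by 2.49. The smallest difference was that of Aldh1l1 (-0.87), whose call was lost without lesion pool 6. Gfap, the filament protein that astrocytes raise in most injuries, had 51655, 36836 and 47196 in the lesion, against 184334, 270277 and 260275 in distal cord (-2.39 ± 0.25, adjusted p = 1.10e-05). Other genes of the reactive astrocyte list rose: Vim by 1.94, Nes by 2.44 and Serpina3n by 2.11, among 6 that rose and 2 that fell of 16 tested. Vim and Lgals3, which also rose, are expressed by macrophages and fibroblasts too.

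Most neuronal genes did not pass the test, and distal pools differed widely among themselves. Of 16 tested neuron genes, 3 fell and 1 rose (median -1.58), with 1 that fell when distal pool 1, lesion pool 4 or lesion pool 6 was left out, and of 16 synaptic genes 1 fell and none rose. Snap25, a synaptic vesicle fusion protein, had 937, 512 and 165 in the lesion, against 8187, 3471 and 883 in distal cord (-2.77 ± 1.17, adjusted p = 0.0954). The neuron list's mean log2 level was 8.57, 8.07 and 6.84 in the lesion, against 10.49, 9.14 and 8.27 in distal cord. Distal pool 1 was highest, and Chat, the marker of motor neurons and other cholinergic cells, had 1210 there against 2.20 and 36.9 in distal pools 3 and 5; the part of this spread in the neuronal comparison was not tested. Uchl1, a ubiquitin hydrolase abundant in neurons, had 3105, 2518 and 2334 in the lesion, against 11910, 8320 and 10624 in distal cord (-1.95 ± 0.28, adjusted p = 0.000152). Tubb3 (-1.17) and Map2 (-1.35) also passed, and each lost its call in 4 or 5 of the 6 fits that left out 1 pool. Gap43, the growth-cone protein, had 1267, 1512 and 1083 in the lesion, against 332, 239 and 219 in distal cord (2.29 ± 0.45). The synaptic gene that fell, Grin1 (-4.27), had 967 in distal pool 5 and 15.4 to 89.9 in the other distal pools, and lost its call without that pool or without lesion pool 2.

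Genes of the node of Ranvier and its flanks fell in 8 of 14 tested. Cntn1, the contactin of the paranodal junction, had 1744, 1439 and 1397 in the lesion, against 7914, 8994 and 8295 in distal cord (-2.46 ± 0.19, adjusted p = 1.26e-06). Kcna1, a potassium channel of the juxtaparanode, had 1574, 1313 and 1002 in the lesion, against 7886, 4817 and 6619 in distal cord (-2.31 ± 0.35). Kcna2, its partner, fell by 2.17, Kcnq3, a nodal potassium channel, by 2.62, and Ank3, the ankyrin that anchors nodal channels, by 2.12. The nodal sodium channel Scn8a had 101 to 217 in the lesion and 345 to 1228 in distal cord, without overlap, and did not pass (-2.14 ± 0.98, adjusted p = 0.124). Several of these genes are also expressed by glia.

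Fibroblast and matrix genes rose. Of 18 tested, 15 rose and 1 fell (median 3.67). Col1a1, a chain of the main fibrillar collagen, had 4330, 8217 and 5784 in the lesion, against 39.9, 33.1 and 173 in distal cord (6.56 ± 0.72, adjusted p = 1.57e-05). Fn1, fibronectin, had 45000, 62626 and 42452 in the lesion, against 1775, 4456 and 7460 in distal cord (3.66 ± 0.41), and Postn, a matrix protein of activated fibroblasts, rose by 4.63. Among proteases and inhibitors 11 of 19 rose and 1 fell. Plau, the urokinase gene, had 197, 171 and 217 in the lesion, against 1.00, 2.20 and 0 in distal cord (6.71 ± 0.89, adjusted p = 7.57e-05). Mmp13 had 178 to 224 in the lesion and no read in the distal pools, at least 60.4-fold higher against a floor of 3 reads per library. Mmp14, the membrane-bound activator of other metalloproteinases, had 3396 to 4644 in the lesion, against 636, 874 and 29408 in distal cord, where pool 5 stood apart. Among proteoglycans Cspg4 and Vcan rose and Bcan, the brevican of perineuronal matrix, fell by 1.55.

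Vessel genes changed in part. Of 17 endothelial and barrier genes, 2 rose and 4 fell, against 14.7% and 13.3% of all genes. Mfsd2a, the lipid transporter of the blood-brain barrier, had 212, 179 and 146 in the lesion, against 767, 1039 and 1565 in distal cord (-2.60 ± 0.32, adjusted p = 4.56e-05). Slc2a1, the glucose transporter of barrier endothelium, fell by 1.36, and Slco1a4, an organic anion transporter, by 2.11. Icam1, a leukocyte adhesion molecule, rose by 1.69. Cldn5, the main barrier claudin, had 488 to 768 in the lesion and 722 to 2357 in distal cord, and did not pass (-0.94, adjusted p = 0.154). Kdr, the VEGF receptor 2 gene, had 403, 1381 and 1575 in the lesion, against 378, 159 and 54.7 in distal cord (2.67, adjusted p = 0.0211). The calls of Icam1 and Kdr were each lost in 3 of the 6 fits that left out 1 pool, with lesion pools 4 and 6 among them for both.

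Metabolic genes moved in opposite directions. Of 20 tested glycolysis and hypoxia genes, 9 rose and 3 fell, and of 18 respiratory chain genes none rose and 7 fell (median -0.55); 2 fell without lesion pool 4, and 4 fell without any one of lesion pools 2 and 6 and distal pools 1 and 5. Ldha, lactate dehydrogenase A, had 14869, 15108 and 12734 in the lesion, against 1608, 2918 and 3664 in distal cord (2.46 ± 0.33, adjusted p = 8.03e-05). Hif1a, the hypoxia-inducible factor, rose by 1.62, Slc16a3, a lactate exporter, by 3.11, and Hk2 by 2.97, while the other hexokinase gene Hk1 fell by 1.19. Ndrg1, which hypoxia induces and which myelinating cells express, had 6138, 3597 and 4875 in the lesion, against 38309, 36887 and 40481 in distal cord (-3.02 ± 0.26). Of the respiratory genes, Cox4i1 fell most, by 1.74, and Sdha fell by 0.92. Among stress genes, Atf3, induced by injury, had 4162, 4042 and 3401 in the lesion, against 488, 346 and 369 in distal cord (3.28 ± 0.60), the endoplasmic reticulum chaperone genes Hspa5 and Calr rose by 1.59 and 1.87, and Trib3 rose by 6.46. Myc, an immediate early transcription factor, rose by 1.90.

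Of 18 tested genes of the glial growth factor list, 4 rose and 2 fell, against 14.7% and 13.3% of all genes. The list holds factors known to act on the oligodendrocyte lineage and the binding protein genes Igfbp2 and Igfbp3. The count that rose was 1 or 2 without lesion pool 2, 4 or 6 or distal pool 3. Beside Igf1, the genes Igfbp2, Igfbp3 and Gdf15 passed (1.78, 2.54 and 3.63); Igfbp3 lost its call without lesion pool 4, Igfbp2 in 5 and Gdf15 in 4 of the 6 fits that left out 1 pool. Fgf1 had 1662, 1259 and 1310 in the lesion, against 8668, 8874 and 7454 in distal cord (-2.57 ± 0.26, adjusted p = 8.72e-06), and Tgfa fell by 0.93, a call lost in 4 of the 6 fits that left out 1 pool. Igf2 had 988, 2577 and 31200 in the lesion, against 1328, 4647 and 1226 in distal cord, with lesion pool 6 apart from the others.

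Genes listed at 0 limit several of these groups. Of 636 listed genes in the table, 25 were at 0 in all 14 libraries, among them P2ry12, B2m, Cxcl10, Timp1, C4b and Gpr17. Of the 25, 13 (52.0%) have an annotated span that overlaps another named gene, against 95 of 611 (15.5%) of the listed genes with a value. A value of 0 for such a gene was therefore not read as absence of the transcript. Also, 250 tested genes reached the filter, among these 6 libraries, only in the lesion.

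The lesion response of microglia-ablated mice shared most of its calls with that of mice that keep their microglia. In ablated mice 4678 genes (29.9%) passed between lesion and distal cord, 2520 higher (16.1%) and 2158 lower (13.8%). Of these, 3301 were also called in the same direction in non-ablated mice, which is 75.5% of the non-ablated and 70.6% of the ablated calls. The comparisons have no library in common in their means, but both take their errors from 1 fit over all 14 libraries, so their calls are not independent. Myelin genes fell in 19 of 19 tested in non-ablated mice and in 18 of 19 in ablated mice, cholesterol synthesis genes in 16 and 18 of 19, and astrocyte genes in 15 of 15 in both. Mitosis genes rose in 21 of 23 in non-ablated and 18 of 23 in ablated mice, with medians of 4.43 and 2.68. The 3 genes called in opposite directions were A730085K08Rik (2.08 and -1.66), Epas1 (-0.98 and 0.63) and Slc46a1 (1.36 and -1.02), none of which passed the test of the difference itself (adjusted p = 0.501, 0.210 and 0.335); they were chosen after their values were seen.

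In the direct test, non-ablated response minus ablated response, 2 genes passed (0.0128%), both in the higher direction, and 0 in the lower direction (0%); 885 had an unadjusted p under 0.05. Kif22 had 1752, 2009 and 1664 in the lesion of non-ablated mice, against 85.9, 47.4 and 112 in their distal cord. In ablated mice it averaged 1415 ± 584 in the lesion and 752 ± 204 in distal cord (SD, n = 4 each), a difference of 0.87 (adjusted p = 0.0573). The responses differed by 3.66 ± 0.49 (adjusted p = 0.0383). Cdhr3, a cadherin-related protein of ciliated epithelium, had 151, 198 and 149 in the lesion of non-ablated mice, against 9.98, 9.92 and 10.2 in their distal cord (3.91 ± 0.51). Its ablated values were 21.3, 37.5, 12.5 and 22.0 in the lesion, against 32.0, 53.5, 58.4 and 28.6 in distal cord (-0.89, adjusted p = 0.149), and its responses differed by 4.80 ± 0.68 (adjusted p = 0.0383). In the non-ablated pools both genes separate lesion from distal cord without overlap. The count of 2 was 0 without lesion pool 2, 4 or 6 or without distal pool 1. Without distal pool 3 it was 1, which was neither Kif22 nor Cdhr3. Without distal pool 5 it was 2, of which 1 was from this pair. Among ablated pools it was 1 without lesion pool 8, 2 without distal pool 11 and 0 without any one of the other 6. Without pool 8 the gene was 1 of this pair. Without pool 11 they were 1 higher and 1 lower, with 1 of this pair among them. With no filter on low values the count was 0.

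**Figure D5:**
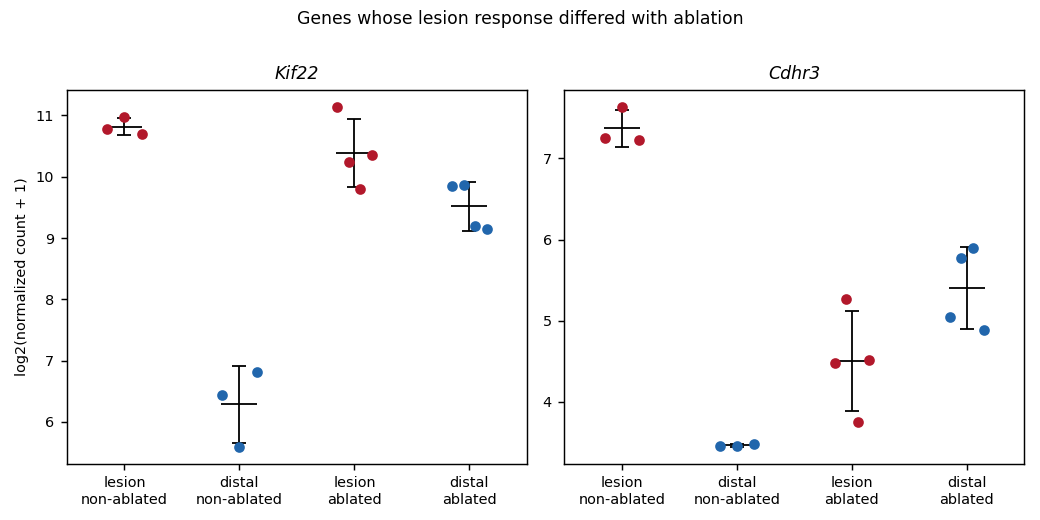
The panels show Kif22 and Cdhr3, with log2(normalized count + 1) on the vertical axis and 1 point per library, with the non-ablated groups (lesion, then distal) on the left and the ablated groups (lesion, then distal) on the right; bars are means ± SD. The non-ablated distal pools lie lowest for both genes (47.4 to 112 and 9.92 to 10.2 normalized counts).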

How the data were processed

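Gene expression was measured by bulk RNA-seq of 14 pooled ventral spinal cord samples. Per the labels' protocols, RNA was copied to cDNA, amplified by multiple displacement, and sequenced for 75 cycles. BWA 0.7.17.1, bcl2fastq, DESeq2 and mm10 are named in the submitters' processing notes, whereas read counting, strand and annotation are not stated there. Per the labels and the values, the authors deposited a normalized signal, in which the counts of a library share 1 scaling factor. Each column divided by its smallest step gave whole reads for 100% of values within 0.01; in distal pool 1 that step is too near 1 to be told from rounding. Of 24116 genes, 4706 were at 0 in all libraries, and 15637 with a normalized count of at least 10 in at least 3 libraries were tested. Entries without a symbol held 0.00265% to 0.0239% of reads, and 27 entries carry a date as symbol. Both kinds were tested where they passed the filter, but were left out when genes were named.

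The main test was limma 3.58.1 (trend) in R 4.3.3 on log2(normalized count + 1), with 4 group means over all 14 libraries, since the unit holds no raw counts (residual df 10), and an adjusted p of 0.05. Alternatives were the quasi-likelihood test of edgeR 4.0.16 and DESeq2 1.42.0, both run on recovered reads, and other scalings, pseudocounts, filters and sample sets. The main test was also run on simulated data with the same dispersion in all groups, which cannot check it for groups of unequal spread. No 2 pools of a group agreed within sampling noise (chi-square per degree of freedom at least 31.5), so all were counted. Counts limit precision at low genes, with a floor of 3 reads per library, and floors cover counting error only.

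Genes named are the 12 largest differences per direction among those passing with a higher group mean of at least 100 and no overlap. The 8 smallest p-values per direction were taken among all tested genes. Both rankings leave out predicted genes, RIKEN clones, pseudogenes, mitochondrial, microRNA and small RNA genes, and entries without a symbol. Also named are the 4 members of each of 43 lists (641 genes) with the smallest p. Others, including members that did not pass or were used as background, were named after their values were seen; some genes that the rule picks are not reported here. The comparison, the lists and the motifs were chosen with earlier results of these data known. Promoters are RefSeq (GRCm38.p6), 250 bases before to 50 after each start, and gene spans and exons are from the same build; 24061 genes matched by Entrez identifier. Figures were drawn with matplotlib 3.10.9 in Python 3.11.15.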

Additional observations from a re-analysis of the deposited data

Results flagged for a closer look

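The lesion response of Kif22 differed between non-ablated and ablated mice in a test of the difference itself, by 3.66 on the log2 scale (limma with Benjamini-Hochberg adjustment, adjusted p = 0.0383). All 3 non-ablated lesion pools (1664 to 2009 normalized counts) lay above all 3 non-ablated distal pools (47.4 to 112). The ablated lesion pools held 896 to 2250 and the ablated distal pools 566 to 934, so the non-ablated distal pools were the lowest of the 4 groups.

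The lesion response of Cdhr3 differed by 4.80 in the same direction (adjusted p = 0.0383). Non-ablated lesion pools held 149 to 198 and non-ablated distal pools 9.92 to 10.2, while ablated lesion pools held 12.5 to 37.5 and ablated distal pools 28.6 to 58.4. Neither gene passed with no filter on low values. Groups of 3 pools were not searched for single outlying values.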

How the results depend on the processing

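The count of genes called between lesion and distal cord (4374) stayed within 1.5 times under every alternative, from 2989 without distal pool 5 and lesion pool 6 to 6109 with array weights; leaving out single pools gave 3061 to 4007, and edgeR and DESeq2 gave 4276 and 5192. The ablated count (4678) ranged from 3661 to 4920 when single pools were left out. The count of 2 genes for the difference of responses (Kif22 and Cdhr3) was 0 with no filter, 1 with a filter at 50, 6 with array weights, 0 with the replicate block, 0 without distal pool 5 and lesion pool 6, 1 with the age label as covariate and 94 with DESeq2; leaving out single pools gave 0 to 2. No fit that left out 1 pool kept both genes. The cause of these shifts was not tested.

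Consecutive pool numbers were not taken as pairs: deviations from the group means correlated at 0.21 for pools 2 and 1, 0.02 for 4 and 3 and 0.17 for 6 and 5, although each lesion pool correlated best with its consecutive distal pool. The replicate block called 4086 genes. A fit on the 6 non-ablated libraries alone called 4961, of which 4047 were among the 4374.

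Of 270 named genes, 219 passed in the reported fit; 178 of them kept their call and direction under every alternative that gave a value for them (20 to 22 a gene), 41 lost the call under at least 1, and none that passed changed sign. Among genes that did not pass, leaving out single pools changed the sign of Cd163 (-1.10 to 0.27), Cd79b (-0.037 to 0.55), Chat (-3.90 to 0.38), Hbb-bs (-2.48 to 0.21), Igf2 (-0.30 to 2.19), Isg15 (-0.26 to 2.96), Kif11 (-0.44 to 0.052) and Mmp14 (-0.35 to 2.41). The sign also changed without distal pool 5 and lesion pool 6 for Hbb-bs (0.017) and Igf2 (-0.64), with quantile normalization for Kif11 (0.019) and Pax5 (-0.41), with edgeR for Isg15 (-0.12) and Mmp14 (-1.40), with DESeq2 for Isg15 (-0.088) and with the age label for Cd79b (-0.057). The cause was not tested.

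A pseudocount of 10 shrank the differences of genes near 0 in distal cord, such as Mmp8 (4.58, against 7.51 with a pseudocount of 1). Amplified libraries and 3 pools a side limit what low genes can show.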

Other observations

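Counts for groups of other cells are to be read against the 14.7% of all tested genes that rose and the 13.3% that fell. Of 13 tested pericyte and smooth muscle genes, 2 rose and 6 fell, and 1 fell without lesion pool 6. The pericyte signalling gene Rgs5 had 824, 1198 and 651 normalized counts in the lesion, against 2264, 2334 and 2631 in distal cord (limma, -1.48 ± 0.33, adjusted p = 0.00358). Myh11, the myosin of smooth muscle, had 1962 in distal pool 5 and 10.5 to 130 in the other 5 pools. Of 10 Schwann cell genes, 3 rose and 1 fell, a count of 1 without distal pool 1, lesion pool 2 or lesion pool 4. Of 10 ependymal genes, none rose and 3 fell, a count of 0 without lesion pool 4. Among 3 tested blood cell genes, Pf4 rose and the hemoglobin genes did not pass; Hbb-bs had 1837 in distal pool 5 and 42.9 and 392 in distal pools 1 and 3, against 131 to 198 in the lesion. Gp9, a platelet surface gene, had 401 in distal pool 5 and at most 3.23 in the other 5 pools.

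Further lists gave 5 of 10 alternative activation genes that rose and none that fell, 4 and 1 of 11 iron handling genes, 4 and 2 of 16 heat shock and unfolded protein genes, 3 and 2 of 15 immediate early genes, 2 and 3 of 15 proteoglycan and hyaluronan genes, and 1 and 0 of 3 MHC class II genes. Over all tested genes 14.7% rose and 13.3% fell, and several of these counts lie near those shares.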
